A study of Arabidopsis thaliana with 18 samples.

Results

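The seedlings of atchz1ab hta9hta11, an Arabidopsis thaliana line that combines mutations in AtChz1 genes with mutations in 2 genes for the histone variant H2A.Z, were compared by RNA sequencing with Col-0, the wild type. The comparison rests on 3 libraries of the combined line against 3 of Col-0, which are 6 of the 18 libraries of the study, and it covers the 18906 genes with enough counts out of 33602 in the table. All plants had the Col-0 ecotype and were seedlings of 14 days, kept at 22 °C on MS medium with a day of 16 h light and a night of 8 h. The combined line carries atchz1ab with the alleles hta9-1 and hta11-2, and it is set beside its component lines, with 3 libraries each, which are atchz1ab without these alleles and hta9hta11 (hta9-1 with hta11-2). Seedlings were sequenced whole, so that every value is an average over organs. How many seedlings or separate cultures stand behind a library is not given in the labels, and p-values therefore cover no more than the differences among libraries of a group, possibly technical ones.

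H2A.Z takes the place of H2A in nucleosomes close to the start of many genes, where it is tied both to the silence of inducible genes and to their quick induction. In Arabidopsis it is made from HTA8, HTA9 and HTA11, of which HTA8 is not mutated here. The SWR1 complex, of which ARP6 is a subunit, exchanges H2A for H2A.Z, and in yeast the chaperone Chz1 escorts H2A.Z to that exchange. Loss of this deposition in Arabidopsis is known for early flowering with low FLC, for altered responses to temperature and phosphate, and for defects in repair of DNA.

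The mutated H2A.Z genes were low in the combined line. HTA11 (AT3G54560) was at 20.8, 19.9 and 17.62 CPM (counts scaled by library size to a common total) in the Col-0 libraries and at 0.544, 0.991 and 0.899 CPM in the combined line, a log2 fold change of -4.59 ± 0.21, adjusted p = 1.68e-41. HTA9 (AT1G52740) was at 98.5, 86.99 and 94.4 CPM in Col-0 and at 38.2, 42.3 and 37.1 CPM in the combined line (-1.25 ± 0.058, adjusted p = 1.19e-40). The groups did not overlap for either gene, and neither was at 0. In hta9hta11 the means were close to those of the combined line, 0.832 ± 0.513 CPM for HTA11 and 42.7 ± 1.68 CPM for HTA9. HTA8 (AT2G38810), the H2A.Z gene left intact, was at 6.81, 6.93 and 4.5 CPM in Col-0 and 4.35, 4.84 and 6.29 CPM in the combined line, with overlapping groups (-0.26 ± 0.19, adjusted p = 0.477). HTA4, which encodes another H2A of this class, had no count in any of these libraries, and ARP6 did not pass the test (-0.083 ± 0.094, adjusted p = 0.677). AtChz1 levels are not given, because the sources used here do not pair AtChz1 names with gene identifiers. AT1G44770, annotated as an elongation factor, had 947 counts in the 3 Col-0 libraries together and 0 in those of the combined line. Taking 3 counts over the group as the floor, it was at least 358-fold lower. It was also at 0 in every atchz1ab library and at 37.2 ± 1.14 CPM in hta9hta11.

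Across the transcriptome, 2177 of 18906 genes differed between the combined line and Col-0 at an adjusted p under 0.05 in edgeR's quasi-likelihood test, 11.5% of those tested. Of these, 1171 were higher (6.19%) and 1006 lower (5.32%). Most changes were small. A change of at least 2-fold was met by 357 genes (1.89%), of which 185 were higher and 172 lower, and the median change of called genes was 0.33 on the log2 scale in either direction. With genes split into 4 equal bins by level, the share called was 8.42% in the lowest bin and 21.7% in the highest, where called genes had a median change of 0.18. The gene lists below are set against shares over all genes, which are not matched for level. The median log2 change over all genes was -0.0026, a value that the scaling brings near 0 by design. It cannot show whether there was an overall shift. By chromosome, the share called ran from 11% of tested genes on chromosomes 3 and 5 to 12% on chromosome 4. Within 1 Mb of HTA9 the share was 12.1%, within 1 Mb of HTA11 9.53% and within 1 Mb of AT1G44770 13.9%.

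**Figure D1:**
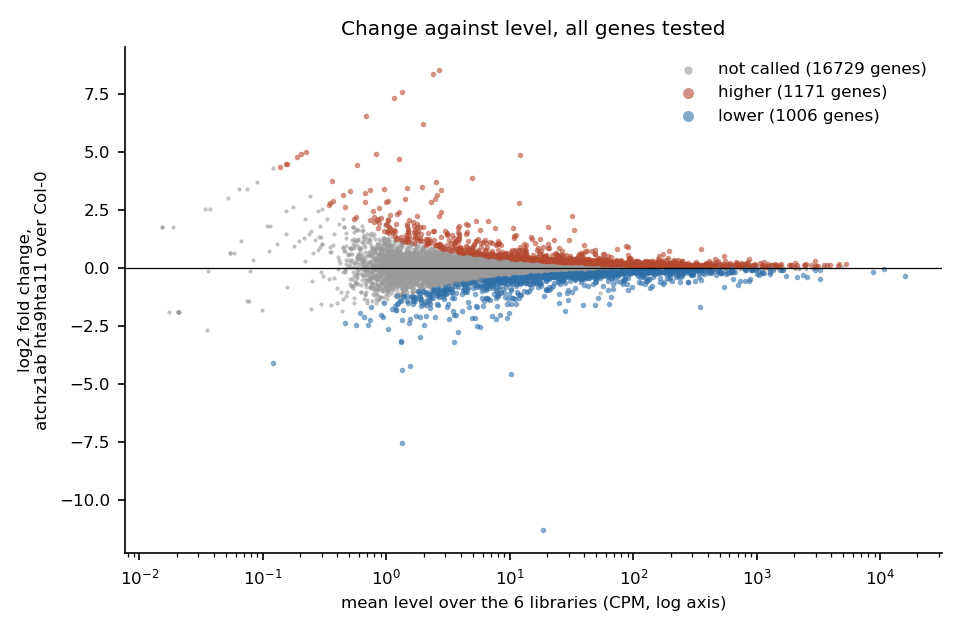
Each point is one of the 18906 genes tested, with the mean level over 6 libraries on the horizontal axis (CPM, log axis) and the log2 fold change of atchz1ab hta9hta11 over Col-0 on the vertical axis. The 1171 genes called higher and the 1006 called lower reach small changes at high levels, while changes of several log2 units are seen at low levels.

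Depth was similar in the groups, at 7810720 to 9310392 counts per library in Col-0 and 8674093 to 10744318 in the combined line. Counts from the organelle genomes made up 1.73% ± 0.0049 of all counts in the combined line and 2.13% ± 0.011 in Col-0 (SD, n = 3), without overlap between the groups. An exact two-sided permutation test gave p = 0.1, the smallest that 3 libraries against 3 allow. Photosynthesis transcripts were abundant in both groups. Of 16 root markers 6 were tested, while the other 10, among them COBL9, EXP7, RSL4 and PLT1, had at most 22 counts each over the 6 libraries. The summed level of the root list ran from 412 to 427 CPM in Col-0 and from 403 to 417 CPM in the combined line, and that of the photosynthesis list from 89183 to 90551 CPM and from 89513 to 90232 CPM. The root sum rests mostly on the tested markers, and the list does not settle how much root the samples held.

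**Figure D2:**
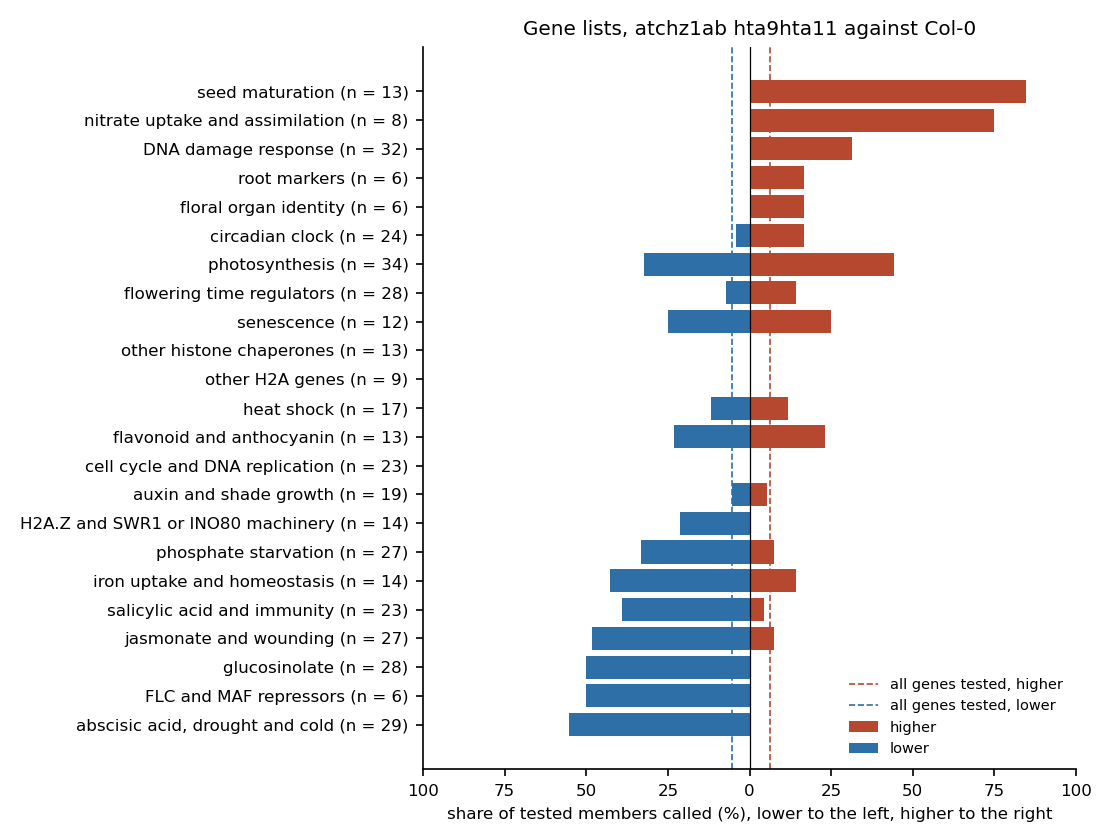
Bars give, for 23 lists of known genes, the share of tested members called lower (to the left) or higher (to the right) in atchz1ab hta9hta11 against Col-0, in percent. Dashed lines mark the shares over all genes tested, 5.32% lower and 6.19% higher. Seed maturation (11 of 13 higher, of which 5 passed the filter on low counts only through the combined line) and abscisic acid, drought and cold (16 of 29 lower) lie at the ends of the order.

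Storage protein genes of the seed were higher in the combined line. Genes of seed maturation make the storage proteins and oil body proteins of the embryo and are normally silent once a seedling is established. Of 19 listed members 13 were tested. Among them SESA1, SESA2, SESA3, SESA4 and CRU2 passed the filter on low counts only through the libraries of the combined line, so that they had to be higher there, and they are described without weight on their calls. Of the other 8 members 6 rose and 0 fell, while 6.19% of all genes rose. Taken over the list, the summed level was 17.7 to 24.1 CPM in the Col-0 libraries and 121 to 123 CPM in the combined line.

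The promoters of these genes are shown because most tested members hold the same short element. The RY core CATGCA, read by the B3 factors ABI3, FUS3 and LEC2, was searched on both strands in the 250 bases before each gene's start, in the TAIR10.1 sequence with RefSeq gene starts. It was found in 9 of the 13 tested members and in 1333 of 18263 tested nuclear protein-coding genes (7.30%). Among these 9 are SESA1 to SESA4, near copies that passed the filter on low counts only through the combined line. The shares are therefore not weighed against each other. A match is a description of these letters and not a bound site. Below are 3 of these windows on the gene's strand, with RY matches in capitals.
SESA1, chr4:13607079-13607328, plus strand: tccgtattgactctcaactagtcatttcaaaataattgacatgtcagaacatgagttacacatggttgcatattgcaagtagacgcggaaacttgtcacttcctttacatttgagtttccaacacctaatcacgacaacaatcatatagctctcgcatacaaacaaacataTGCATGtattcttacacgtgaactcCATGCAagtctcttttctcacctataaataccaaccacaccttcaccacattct
SESA3, chr4:13611546-13611795, plus strand: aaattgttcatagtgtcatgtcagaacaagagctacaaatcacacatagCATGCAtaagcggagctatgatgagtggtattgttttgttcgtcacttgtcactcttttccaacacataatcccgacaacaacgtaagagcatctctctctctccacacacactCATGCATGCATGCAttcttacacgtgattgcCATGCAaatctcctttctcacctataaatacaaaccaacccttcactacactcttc
CRU3, chr4:14087306-14087555, plus strand: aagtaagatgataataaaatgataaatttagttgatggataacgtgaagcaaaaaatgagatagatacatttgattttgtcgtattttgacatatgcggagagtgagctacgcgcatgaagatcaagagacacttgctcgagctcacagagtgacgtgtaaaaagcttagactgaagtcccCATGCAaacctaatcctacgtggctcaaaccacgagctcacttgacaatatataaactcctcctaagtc
SESA1 held 2 matches and CRU3 1, while SESA3 held 7, some of which overlap because CATGCATG holds the core on both strands. The G-box core ACGTG, searched the same way on both strands, was in 8 of the 13 members and in 23.5% of all windows. SESA1 to SESA4 are among these members too, so that these shares are not weighed either.

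The 2S albumin genes SESA1 to SESA4, which lie side by side on chromosome 4 and encode small seed storage proteins, were near 0 outside the combined line. SESA1 (AT4G27140) had 0 counts in Col-0 and was at 4.17, 5.83 and 4.27 CPM in the combined line, at least 40.3-fold higher than a Col-0 floor of 3 counts per group (adjusted p = 5.13e-16). SESA2 (AT4G27150) was likewise at 0 in Col-0 and at 4.54, 5.61 and 5.85 CPM in the combined line, at least 45.03-fold higher (adjusted p = 3.46e-17). SESA3 (AT4G27160) had 1 count over the Col-0 libraries and was at 3.99, 2.75 and 5.06 CPM in the combined line, a ratio of 100.7 (95% counting interval 17.7 to 4010.0) (adjusted p = 1.12e-12). All 3 libraries of the combined line lay above every Col-0 library for each of these genes. SESA4 (AT4G27170) was at 0 in Col-0 and at 3.27, 2.53 and 2.25 CPM in the combined line, at least 23.2-fold higher (adjusted p = 2.45e-10). The component lines hardly carried these transcripts either, with means of 0.0412 CPM for SESA1 and 0.247 CPM for SESA2 in hta9hta11 and 0 and 0.0364 CPM in atchz1ab. Against hta9hta11 the adjusted p was 6.97e-15 for SESA1 and 3.34e-13 for SESA2, and against atchz1ab it was 2.59e-16 and 1.16e-16. The interaction, which asks whether the combined line departs from the sum of its component lines' log2 changes, did not pass for SESA1 (adjusted p = 1) or SESA3 (adjusted p = 0.052), which have few or no counts outside the combined line. The SESA genes are near copies, and the authors' counting could split reads between them.

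The 12S globulins, the other main storage proteins, rose as well. CRU3 (AT4G28520) was at 0.9904, 0.315 and 1.12 CPM in Col-0 and at 22.4, 24.99 and 22.5 CPM in the combined line (4.87 ± 0.22, adjusted p = 1.22e-41), with 5.64 ± 0.538 CPM in atchz1ab and 7.48 ± 0.475 CPM in hta9hta11. CRA1 (AT5G44120) was at 12.6, 9.44 and 11.6 CPM in Col-0, 55.2, 49.3 and 53.5 CPM in the combined line (2.24 ± 0.10, adjusted p = 7.79e-43), 20.2 ± 0.771 CPM in atchz1ab and 40.7 ± 2.61 CPM in hta9hta11. For both genes the 4 genotypes stood in the same order, with no overlap between Col-0 and the combined line. CRU2 (AT1G03880) had 0 counts in Col-0 and in both component lines and was at 2.27, 3.08 and 1.57 CPM in the combined line, at least 19.7-fold higher (adjusted p = 4.99e-09 in edgeR, and 0.553 in DESeq2). The interaction of the CRU3 values was -1.19 ± 0.35, adjusted p = 0.0177 and that of CRA1 -0.48 ± 0.14, adjusted p = 0.0152, so that both combined levels fell short of the sum of the component lines' log2 changes.

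Oil body and late embryo genes were also among the members that rose. OLEO1 (AT4G25140), an oleosin that coats oil bodies, was at 0.248, 0.525 and 0.75 CPM in Col-0 and 4.35, 5.61 and 3.93 CPM in the combined line (3.15 ± 0.37, adjusted p = 6.62e-12). OLEO2 (AT5G40420) was at 2.48, 1.89 and 1.25 and 4.81, 5.17 and 4.95 CPM (1.4 ± 0.28, adjusted p = 7e-05), and the peroxiredoxin PER1 (AT1G48130) at 3.22, 1.57 and 2.25 and 6.35, 6.49 and 6.52 CPM (1.47 ± 0.26, adjusted p = 2.44e-06). M17 (AT2G41260), a late embryogenesis abundant gene, was at 0.9904, 1.99 and 2 CPM in Col-0 and 3.81, 4.84 and 4.95 CPM in the combined line (1.42 ± 0.29, adjusted p = 7.97e-05). In these 4 genes every library of the combined line was above every Col-0 library. OLEO4 (0.32 ± 0.34, adjusted p = 0.658) and EM6 (1.16 ± 0.45, adjusted p = 0.0788) did not pass the test, although EM6 did so without Col-0 replicate 3 (log2 2.00, adjusted p = 0.0123). The regulators of the embryo program were too low to test, with 0 and 0 counts for LEC1, 2 and 3 for LEC2, 4 and 4 for FUS3 and 8 and 25 for ABI3 over the Col-0 and the combined libraries. More cells with these transcripts and more transcript per cell cannot be told apart in RNA from whole seedlings. Against hta9hta11, 7 of the 13 members were higher and 0 lower, with the 5 that passed the filter through the combined line counted in, while 0.793% of all genes were higher and 0.952% lower there. Against atchz1ab, 10 were higher and 0 lower, again with those 5 counted in, with backgrounds of 5.46% and 5.16%. Since those 5 had to be higher in the combined line, neither count is weighed against its background.

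**Figure D3:**
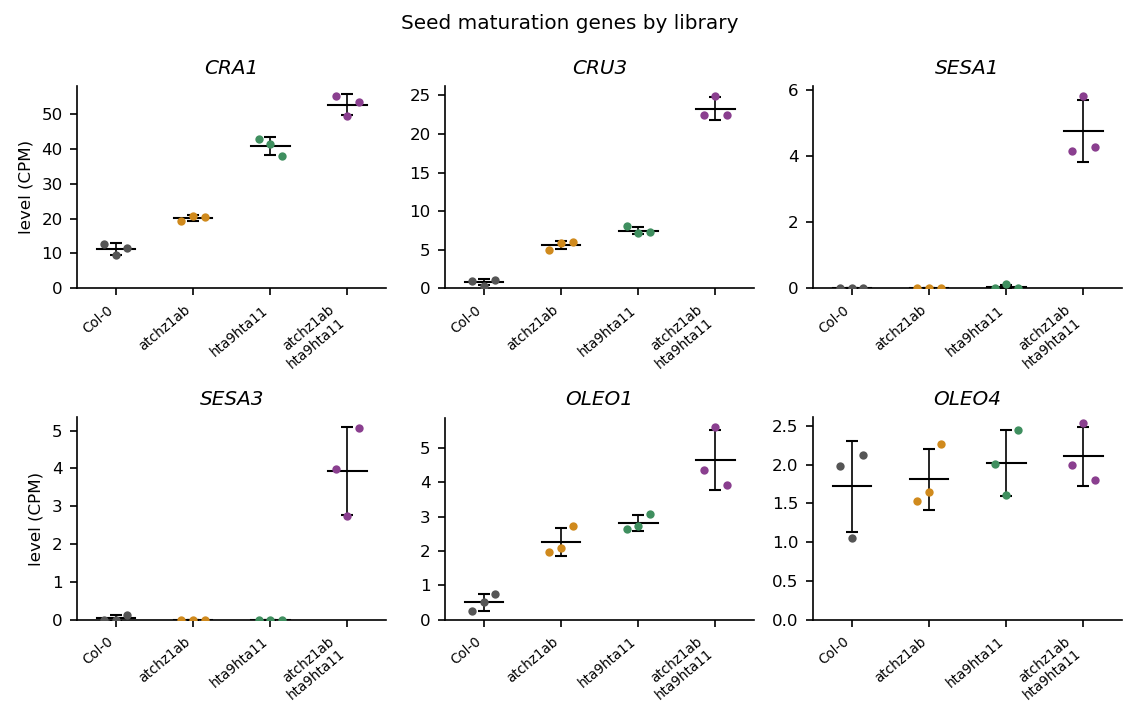
Points give the level of 6 seed maturation genes in each library (CPM, axis from 0) for Col-0, atchz1ab, hta9hta11 and atchz1ab hta9hta11, with bars for the mean and whiskers for the SD (n = 3). SESA1 and SESA3 lie at or near 0 in all genotypes but the combined line, CRA1, CRU3 and OLEO1 are intermediate in the component lines, and OLEO4 overlaps among all 4 genotypes.

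Some genes of the DNA damage response rose. In plants the factor SOG1 takes the place that p53 holds in animals and switches on repair genes and inhibitors of the cell cycle. Of 32 tested members 10 rose and 0 fell, against 6.19% of all genes that rose, and the median was 0.17. This list, like the others, was drawn up with earlier results of these data known, which can raise such counts.

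Promoters of members that rose and hold the SOG1 motif are shown, since that motif is the one through which SOG1 is known to act. The motif, CTTNNNNNNNAAG, reads the same on both strands. It was found in 4 of the 10 members that rose, in 6 of the 32 tested members and in 1594 of 18263 windows of tested genes (8.73%). Capitals mark it in the 250 bases before the start of 3 of these genes.
SMR7, chr3:10231568-10231817, minus strand: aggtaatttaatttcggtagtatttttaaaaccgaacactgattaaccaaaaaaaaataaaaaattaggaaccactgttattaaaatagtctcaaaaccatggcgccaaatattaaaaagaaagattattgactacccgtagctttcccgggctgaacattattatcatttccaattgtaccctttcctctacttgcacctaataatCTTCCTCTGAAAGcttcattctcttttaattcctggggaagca
PARP2, chr4:1049516-1049765, plus strand: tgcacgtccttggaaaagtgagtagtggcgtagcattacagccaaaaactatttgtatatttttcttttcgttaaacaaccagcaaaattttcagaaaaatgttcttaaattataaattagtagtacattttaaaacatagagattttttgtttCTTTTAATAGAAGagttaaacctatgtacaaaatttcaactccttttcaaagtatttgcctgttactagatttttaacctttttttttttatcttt
NAC044, chr3:228825-229074, plus strand: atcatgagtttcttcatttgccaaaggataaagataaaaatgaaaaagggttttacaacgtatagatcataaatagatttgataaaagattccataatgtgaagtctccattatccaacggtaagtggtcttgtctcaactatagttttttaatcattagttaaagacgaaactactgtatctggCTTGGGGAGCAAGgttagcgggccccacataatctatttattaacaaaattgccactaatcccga
In these windows the match ended 30 bases before the gene start for SMR7, 83 for PARP2 and 52 for NAC044.

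Among regulators, SMR7 (AT3G27630), which slows the cell cycle by holding back cyclin-dependent kinases, was at 0.124, 0.2099 and 0.75 CPM in Col-0 and 5.26, 4.51 and 4.27 CPM in the combined line (3.69 ± 0.40, adjusted p = 1.32e-13). NAC044 (AT3G01600), a relative of SOG1 that slows the cell cycle after damage, was at 2.72, 2.204 and 0.875 and 3.99, 3.96 and 5.62 CPM (1.2 ± 0.28, adjusted p = 0.000731). The groups did not overlap for either gene. SMR7 averaged 7.62 ± 1.48 CPM in atchz1ab and 0.271 ± 0.201 CPM in hta9hta11, so that the combined line lay near atchz1ab and far above hta9hta11.

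For the repair genes GMI1, PARP2 and XRI1 the mean of the combined line lay between those of Col-0 and atchz1ab. GMI1 (AT5G24280), which serves recombination between homologous sequences, was at 8.29, 10.4 and 9.12 CPM in Col-0 and 31.3, 31.7 and 30.4 CPM in the combined line (1.74 ± 0.11, adjusted p = 3.01e-29). PARP2 (AT4G02390), which marks broken DNA with poly(ADP-ribose), was at 7.304, 9.76 and 8.12 and 22.8, 20.04 and 21.5 CPM (1.34 ± 0.12, adjusted p = 6.52e-18). XRI1 (AT5G48720), a gene that X-rays induce, was at 10.03, 8.29 and 9 and 21.95, 22.02 and 20.1 CPM (1.24 ± 0.12, adjusted p = 2.43e-16). In each of these genes the combined line was above Col-0 in all libraries. BRCA1 (AT4G21070) was at 7.43, 6.51 and 5.12 and 17.42, 14.2 and 14.5 CPM (1.28 ± 0.14, adjusted p = 3.88e-13). Nucleotides come from ribonucleotide reductase, and TSO2 (AT3G27060), which encodes its small subunit, was at 62.4, 60.97 and 58 and 115, 113 and 115 CPM (0.92 ± 0.050, adjusted p = 2.05e-34). GEX1 had 1 count in Col-0 and 33 in the combined line, a ratio of 29.1 (95% counting interval 4.88 to 1185). RAD17 passed in edgeR (0.50 ± 0.16, adjusted p = 0.0249) but not in DESeq2 (adjusted p = 0.0657) or in 4 of the 6 fits that leave out a library.

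In atchz1ab the means were 42.2 ± 3.69 CPM for GMI1, 27.1 ± 2.69 for PARP2, 26.9 ± 1.52 for XRI1 and 156 ± 0.999 for TSO2, and in hta9hta11 they were 11.9 ± 0.889, 8.21 ± 0.344, 8.18 ± 0.331 and 52.7 ± 3.66. Against atchz1ab, TSO2 was lower in the combined line (log2 -0.44, adjusted p = 3.92e-16), as were GMI1 (log2 -0.44, adjusted p = 1.84e-05) and SMR7 (log2 -0.69, adjusted p = 0.0232). Over the list, 13 of 32 members were higher than in hta9hta11 and 0 lower (0.793% and 0.952% of all genes), and 1 was higher and 6 lower than in atchz1ab (5.46% and 5.16% of all genes). The 7.15% of all genes called for the interaction (3.41% above and 3.74% below the sum of the component lines' changes) included 3 members below it, among them GMI1 (-0.80 ± 0.15, adjusted p = 3.87e-05) and BRCA1 (-0.74 ± 0.20, adjusted p = 0.00591). Of the 23 tested genes of the cell cycle and DNA replication, 0 were called against Col-0 in edgeR or in DESeq2. Over all genes 11.5% were called in edgeR. Of the 23, 5 reached an unadjusted p under 0.05 in edgeR, so that a lack of calls is not a lack of change.

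**Figure D4:**
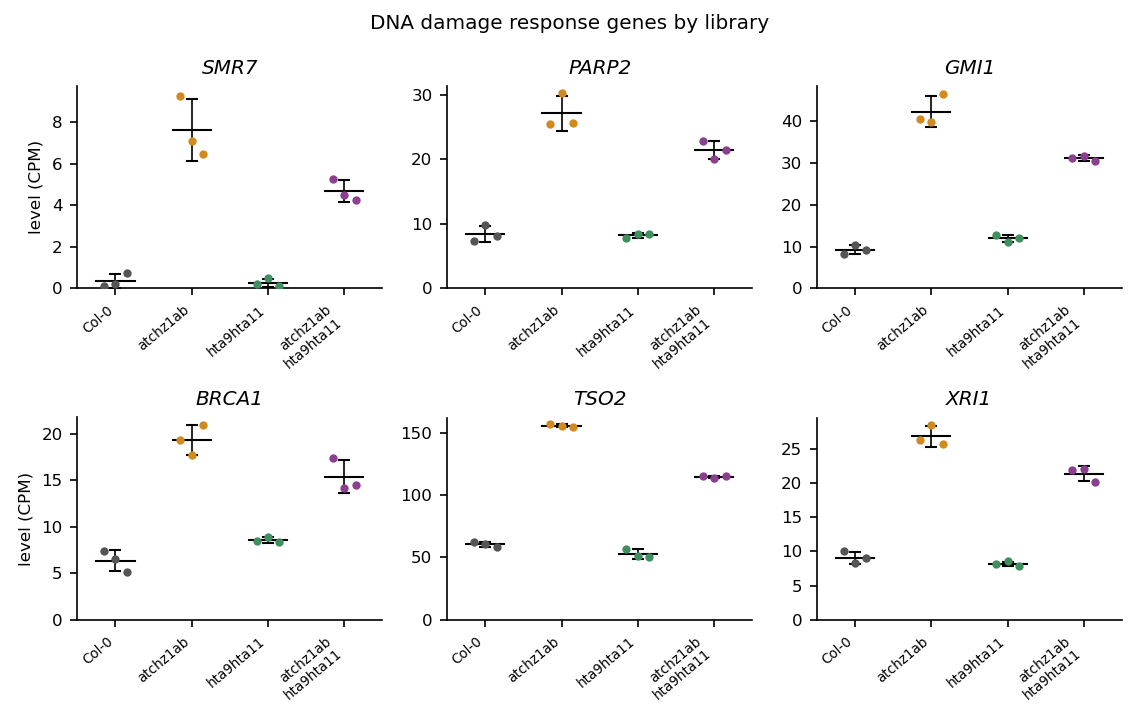
Points give the level of 6 DNA damage response genes in each library (CPM, axis from 0) by genotype, with bars for the mean and whiskers for the SD (n = 3). Means of hta9hta11 lie nearer to Col-0 than those of atchz1ab do, and means of atchz1ab hta9hta11 lie between Col-0 and atchz1ab.

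Flowering regulators changed at a few steps of the pathway. FLC, a repressor of flowering whose loss brings flowering forward, belongs with the MAF genes to a family of 6 tested members, of which 3 fell and 0 rose (median -0.31), against 5.32% of all genes that fell. FLC (AT5G10140) was at 3.59, 3.04 and 3.75 CPM in Col-0 and 1.09, 0.991 and 1.01 CPM in the combined line (-1.72 ± 0.36, adjusted p = 0.000108). MAF5 (AT5G65080) was at 5.94, 6.09 and 6.12 and 3.18, 2.97 and 2.47 CPM (-1.06 ± 0.25, adjusted p = 0.000846), and FLM (AT1G77080) at 38.01, 37.1 and 38 and 32.2, 29.8 and 29.5 CPM (-0.30 ± 0.081, adjusted p = 0.00508). None of these groups overlapped. FLC averaged 3.11 ± 1.28 CPM in atchz1ab and 1.94 ± 0.889 CPM in hta9hta11, while MAF5 averaged 3.13 ± 0.627 and 6.85 ± 2.27 CPM. A RefSeq locus on the other strand covers FLC over its whole length, and whether counting used the strand is not given, so that reads of the pair cannot be told apart.

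Of 28 tested regulators of flowering time 4 rose and 2 fell, with a median of -0.017, against 6.19% and 5.32% of all genes, so that the share of falls was near that over all genes. FT (AT1G65480), the mobile signal that starts flowering, was at 2.35, 2.52 and 1.87 CPM in Col-0 and 5.35, 5.17 and 4.496 CPM in the combined line (1.15 ± 0.25, adjusted p = 0.000322). SOC1 (AT2G45660), a target that FLC represses, was at 84.2, 83.5 and 82.4 and 108, 106 and 107 CPM (0.36 ± 0.047, adjusted p = 3.24e-10), and FUL (AT5G60910) at 2.48, 2.41 and 3.62 and 9.62, 6.72 and 9.78 CPM (1.63 ± 0.20, adjusted p = 5.62e-11). The groups were apart in all 3 genes. TOE1 (AT2G28550), a repressor of FT, fell (-0.30 ± 0.055, adjusted p = 6.02e-06). Of the other called members, SPL4 (log2 0.67) did not pass in DESeq2 or in 3 of the 6 fits that leave out a library, and TEM1 (log2 -0.35) did not pass without Col-0 replicate 1 (adjusted p = 0.0718) or replicate 3 of the combined line (adjusted p = 0.115). Of 6 tested floral organ genes, against the same 6.19% of rises over all genes, SEP3 (AT1G24260), a partner of the other floral factors, was the 1 that rose, from 1.73, 3.25 and 1.75 CPM to 5.72, 4.84 and 5.96 CPM (1.26 ± 0.22, adjusted p = 2.44e-06).

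Iron genes changed in both directions. Of 14 tested members 6 fell and 2 rose (median -0.28), against 5.32% and 6.19% of all genes. BHLH38, BHLH39 and BHLH100 are factors that plants short of iron induce to drive uptake. BHLH38 (AT3G56970) was at 8.05, 7.87 and 8.12 CPM in Col-0 and 1.91, 1.98 and 1.46 CPM in the combined line (-2.15 ± 0.21, adjusted p = 2.43e-16). BHLH39 (AT3G56980) was at 3.84, 5.25 and 5.12 and 1.63, 1.98 and 1.24 CPM (-1.55 ± 0.25, adjusted p = 4.61e-07), and BHLH100 (AT2G41240) at 13.1, 14.8 and 14.5 and 3.901, 5.72 and 4.83 CPM (-1.57 ± 0.15, adjusted p = 2.94e-17). Every library of the combined line was below every Col-0 library in these 3 genes, and BHLH38 and BHLH39 are similar neighbours whose reads could be split. BTS (AT3G18290), a ligase that restrains the iron response, fell (-0.38 ± 0.031, adjusted p = 1.84e-20), as did the reductase gene FRO3 (-0.32 ± 0.055, adjusted p = 1.92e-06) and the phloem transporter gene OPT3 (-0.25 ± 0.032, adjusted p = 3.77e-10).

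FER1 (AT5G01600), a ferritin that stores iron in plastids, was at 157, 146 and 148 CPM in Col-0 and 174, 171 and 170.2 CPM in the combined line (0.20 ± 0.041, adjusted p = 0.000123). The groups were apart, though a locus on the other strand overlaps FER1 over 1334 bases. The component lines stood on different sides. BHLH38 averaged 8.69 ± 1.37 CPM in atchz1ab and 4.26 ± 1.15 CPM in hta9hta11, BHLH100 averaged 17.99 ± 1.39 and 7.002 ± 1.24 CPM, and FER1 averaged 82.4 ± 2.18 and 172 ± 2.06 CPM. Against atchz1ab, 9 of the 14 members were lower in the combined line and 3 higher (5.16% and 5.46% of all genes). In the interaction 7 members lay below the sum of the component lines' changes and 2 above it (3.74% and 3.41% of all genes), with -1.34 ± 0.28, adjusted p = 0.000208 for BHLH38, -0.89 ± 0.20, adjusted p = 0.000823 for BHLH100 and 0.87 ± 0.060, adjusted p = 4.76e-25 for FER1. FER3, the other member that rose (log2 0.21), did not pass without replicate 2 of the combined line (adjusted p = 0.0877).

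Some phosphate starvation genes were lower. PHR1 switches these genes on when phosphate is short, through the P1BS element GNATATNC. Of 27 tested members 9 fell and 2 rose (median -0.22). Among the falls, SPX3 passed the filter on low counts only through Col-0 and had to be lower. Of the other 26 members 8 fell and 2 rose, against 5.32% and 6.19% of all genes. The P1BS element was searched as above and reads the same on both strands. It was in 8 of the 27 members and in 988 of 18263 windows (5.41%). The windows of the pair of called members with the smallest p among those that hold it are given with the element in capitals.
PS2, chr1:27466349-27466598, minus strand: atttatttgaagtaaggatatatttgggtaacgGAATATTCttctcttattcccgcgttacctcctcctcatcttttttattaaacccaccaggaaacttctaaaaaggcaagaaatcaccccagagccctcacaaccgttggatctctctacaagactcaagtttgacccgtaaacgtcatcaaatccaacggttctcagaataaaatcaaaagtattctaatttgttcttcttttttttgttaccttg
SPX3, chr2:18606160-18606409, plus strand: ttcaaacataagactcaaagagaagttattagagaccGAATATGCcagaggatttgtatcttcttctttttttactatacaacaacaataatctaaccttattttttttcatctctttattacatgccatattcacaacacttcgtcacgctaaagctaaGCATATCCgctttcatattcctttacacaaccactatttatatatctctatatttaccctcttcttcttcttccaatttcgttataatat

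SPX3 (AT2G45130), a sensor protein that restrains PHR1, was at 2.97, 1.68 and 3 CPM in Col-0 and 0.0907, 0.2202 and 0 CPM in the combined line, with 3 counts over that group and a ratio of 24.2 (95% counting interval 7.905 to 120.3) for Col-0 over the combined line (adjusted p = 1.28e-08). It passed the filter on low counts only through Col-0, so that it had to be lower. PS2 (AT1G73010), a phosphatase, was at 10.8, 11.8 and 13.6 and 3.81, 3.96 and 3.597 CPM (-1.66 ± 0.19, adjusted p = 4.42e-12), and PEPC1 (AT1G17710), another phosphatase, at 5.45, 7.45 and 6.37 and 2.18, 1.54 and 1.46 CPM (-1.87 ± 0.28, adjusted p = 4.63e-08). The groups did not overlap. MGD3 (AT2G11810), which makes galactolipids that stand in for phospholipids, was at 8.79, 9.76 and 9 and 1.09, 2.31 and 1.57 CPM (-2.49 ± 0.25, adjusted p = 4.02e-15). IPS1 (AT3G09922), a noncoding RNA that sequesters miR399, was at 2.85, 3.36 and 3.87 and 0.635, 0.2202 and 0.337 CPM (-2.98 ± 0.44, adjusted p = 3.27e-08), and its relative AT4 fell too (-0.63 ± 0.13, adjusted p = 7.54e-05). The transporter gene PHT1;4 (-1.1 ± 0.18, adjusted p = 4.43e-07) and PHO1;H1 (-0.68 ± 0.16, adjusted p = 0.000887) completed the group together with the acid phosphatase gene PAP14 (-1.38 ± 0.36, adjusted p = 0.00336).

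These genes were not all lowest in the combined line. In atchz1ab PEPC1 averaged 0.406 ± 0.276 CPM, PS2 2.07 ± 0.4996 CPM and PAP14 0.0364 ± 0.0631 CPM, and in hta9hta11 3.58 ± 1.06, 6.51 ± 1.06 and 2.53 ± 0.446 CPM. Against atchz1ab 8 of the 27 members were higher in the combined line and 0 lower (5.46% and 5.16% of all genes), and against hta9hta11 6 were lower and 0 higher (0.952% and 0.793%). In the interaction 8 members lay above the sum of the component lines' changes and 3 below (3.41% and 3.74% of all genes), with 4.82 ± 0.92, adjusted p = 3.3e-05 for PAP14, 2.9 ± 0.54, adjusted p = 1.62e-05 for PEPC1 and 1.75 ± 0.32, adjusted p = 1.28e-05 for PS2. PAP14 and PEPC1 had few counts in atchz1ab, so that the sizes of their interactions are uncertain. The 2 members that rose were PHO2 (0.19 ± 0.041, adjusted p = 0.000188), a ubiquitin conjugase that limits phosphate uptake, and PAP12 (log2 0.20), which passed in 2 of the 6 fits that leave out a library.

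**Figure D5:**
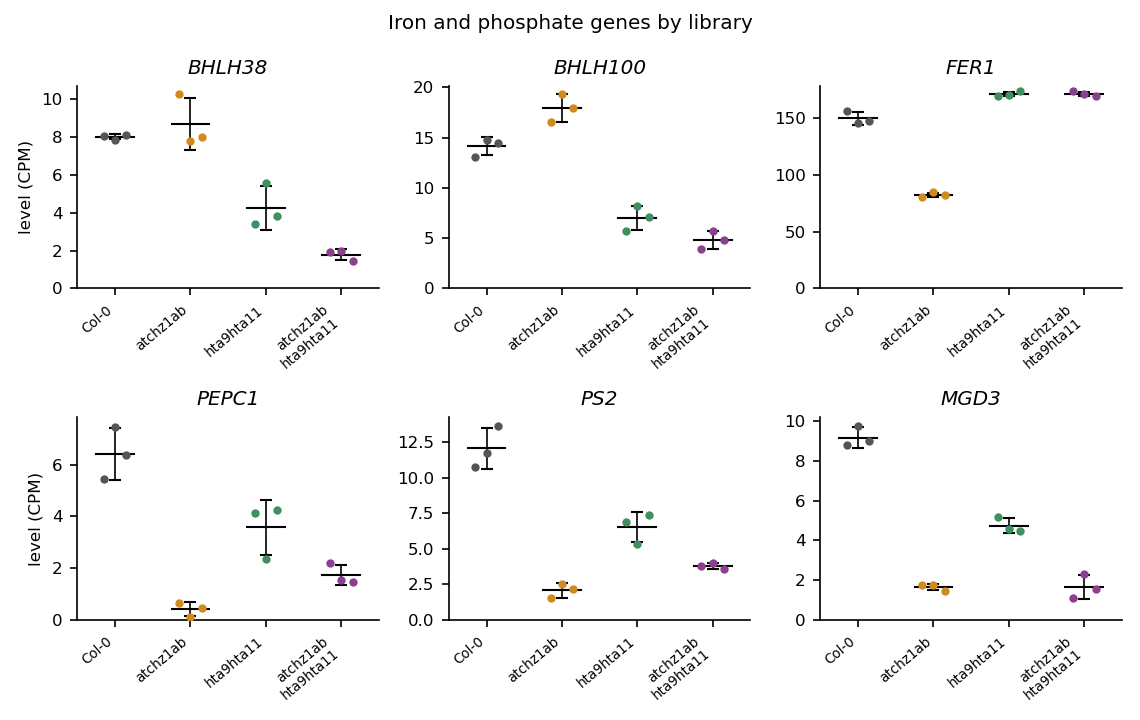
Points give the level of 3 iron genes and 3 phosphate genes in each library (CPM, axis from 0) by genotype, with bars for the mean and whiskers for the SD (n = 3). BHLH38 and BHLH100 are lowest in the combined line and FER1 lowest in atchz1ab, while PEPC1 and PS2 are lowest in atchz1ab.

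Members of several defence lists fell. Of 23 tested genes of salicylic acid and immunity 9 fell and 1 rose (median -0.59), against 5.32% and 6.19% of all genes. PR1 (AT2G14610), the standard marker of salicylic acid signalling, was at 6.44, 5.14 and 7.62 CPM in Col-0 and 0.635, 0.3302 and 1.12 CPM in the combined line (-3.18 ± 0.34, adjusted p = 6.47e-14). ACD6 (AT4G14400), an ankyrin protein that promotes salicylic acid, was at 42.3, 46.1 and 42.4 and 12.8, 11.4 and 11.6 CPM (-1.86 ± 0.10, adjusted p = 2.48e-36), and PR2 (AT3G57260), a glucanase, at 11.5, 17 and 15.9 and 6.89, 4.62 and 6.63 CPM (-1.29 ± 0.17, adjusted p = 3.04e-10). The groups were apart in each gene. WRKY70 (-0.92 ± 0.14, adjusted p = 1.67e-07), DMR6 (-1.22 ± 0.16, adjusted p = 5.98e-10) and PAD3, the last enzyme of camalexin synthesis (-1.65 ± 0.24, adjusted p = 2.06e-08), were among the other members that fell. PR1 averaged 0.4801 ± 0.0741 CPM in atchz1ab and 0.677 ± 0.4903 CPM in hta9hta11, and its interaction was 3.67 ± 0.68, adjusted p = 2.08e-05. With so few counts in both component lines, the size of that interaction is uncertain. In the interaction 7 of the 23 members lay above the sum of the component lines' changes and 0 below (3.41% and 3.74% of all genes).

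Of 27 tested genes of jasmonate and wounding 13 fell and 2 rose (median -0.38), against 5.32% and 6.19% of all genes. Some enzymes of jasmonate synthesis were among the members that fell. LOX2 (AT3G45140), its entry enzyme in chloroplasts, was at 695, 708 and 688 CPM in Col-0 and 395, 398 and 392 CPM in the combined line (-0.82 ± 0.023, adjusted p = 6.57e-62). AOS (AT5G42650), the next enzyme, was at 152, 153 and 156 and 101.4, 112 and 99.4 CPM (-0.56 ± 0.042, adjusted p = 3.4e-23), and AOC2 (AT3G25770) at 289, 277 and 297 and 187, 188 and 189 CPM (-0.61 ± 0.033, adjusted p = 5.72e-35). There was no overlap between the groups, and OPR3, which acts later in peroxisomes, fell as well (-0.45 ± 0.078, adjusted p = 2.11e-06). A defensin, PDF1.2A (AT5G44420), which is a target shared with ethylene that has close copies, was at 13.6, 14.9 and 17.5 and 3.72, 2.09 and 4.496 CPM (-2.15 ± 0.19, adjusted p = 4.01e-19). VSP2, a storage protein of the wound branch, fell (-0.22 ± 0.038, adjusted p = 2.37e-06) while its neighbour VSP1 rose (0.30 ± 0.067, adjusted p = 0.000464), and LOX3, a lipoxygenase gene like LOX2, rose (0.49 ± 0.090, adjusted p = 8.53e-06). LOX2 averaged 575 ± 9.55 CPM in atchz1ab and 385 ± 7.48 CPM in hta9hta11.

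Of 28 tested glucosinolate genes 14 fell and 0 rose (median -0.19), against 5.32% and 6.19% of all genes. These genes make and break the sulfur compounds that brassicas use against herbivores. ESM1 (AT3G14210), which steers the breakdown products, was at 532, 532 and 526 CPM in Col-0 and 163, 167 and 164 CPM in the combined line (-1.68 ± 0.031, adjusted p = 7.3e-83). MAM3 (AT5G23020), which extends the side chain of the precursors, was at 12.4, 11.5 and 11.1 and 3.36, 2.202 and 2.47 CPM (-2.1 ± 0.19, adjusted p = 1.05e-17), and the myrosinase TGG2 (AT5G25980), which cleaves glucosinolates, at 867, 871 and 872 and 571, 586 and 583 CPM (-0.59 ± 0.022, adjusted p = 3.49e-49). The groups were far apart relative to the spread of their libraries. ESM1 averaged 373 ± 9.54 CPM in atchz1ab and 310.1 ± 5.02 CPM in hta9hta11, both between Col-0 and the combined line, and it was lower than in either component line (log2 -1.18 against atchz1ab, adjusted p = 5.46e-64, and -0.91 against hta9hta11, adjusted p = 9.71e-52). The myrosinase TGG1 fell less (-0.38 ± 0.014, adjusted p = 1.27e-48), and the other 10 members that fell reached at most the change of CYP79B2 (log2 -0.48).

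Genes of abscisic acid, drought and cold had the highest share of falls. Of 29 tested members 16 fell and 0 rose (median -0.34), against 5.32% and 6.19% of all genes. Abscisic acid closes stomata and induces protective proteins when water is short, through bZIP factors that read elements with the core ACGTG. That core was in 15 of the 29 members (51.7%) and in 4296 of 18263 windows (23.5%). Among the 16 members that fell it was in 7 (43.8%), and RD29A, P5CS1 and COR15B held none. A link between the core and the falls was not tested. The windows of the called pair with the smallest p that hold it follow, with the core in capitals on either strand.
RAB18, chr5:26519448-26519697, minus strand: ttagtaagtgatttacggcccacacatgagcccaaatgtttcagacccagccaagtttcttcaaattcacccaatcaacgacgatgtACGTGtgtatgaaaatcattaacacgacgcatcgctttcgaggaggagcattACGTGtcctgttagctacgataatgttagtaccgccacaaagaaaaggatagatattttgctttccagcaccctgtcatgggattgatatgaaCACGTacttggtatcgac
COR15A, chr2:17712331-17712580, minus strand: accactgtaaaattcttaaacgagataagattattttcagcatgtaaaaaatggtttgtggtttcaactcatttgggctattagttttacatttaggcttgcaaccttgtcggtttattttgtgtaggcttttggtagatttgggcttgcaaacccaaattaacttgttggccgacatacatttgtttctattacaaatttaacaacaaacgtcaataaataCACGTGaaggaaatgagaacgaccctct
The window of RAB18 reaches into the neighbouring gene AT5G66410.

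RAB18 (AT5G66400), a dehydrin, was at 177, 183 and 180.2 CPM in Col-0 and 112, 103 and 100.5 CPM in the combined line (-0.77 ± 0.040, adjusted p = 9.7e-36). RD29A (AT5G52310), induced by drought and cold, was at 214, 209.8 and 221 and 131, 135 and 136 CPM (-0.68 ± 0.037, adjusted p = 1.64e-34), and P5CS1 (AT2G39800), which makes proline, at 247, 246 and 251 and 167, 164 and 169 CPM (-0.57 ± 0.035, adjusted p = 1.8e-30). Libraries within a group lay close together and the groups were apart. The cold proteins COR15A (-0.68 ± 0.041, adjusted p = 4.09e-30) and COR15B (-0.63 ± 0.038, adjusted p = 1.44e-30) fell as well. KIN1 (AT5G15960) was at 13.1, 13.2 and 12.7 and 7.35, 4.73 and 4.05 CPM (-1.25 ± 0.16, adjusted p = 4.42e-10), and its neighbour KIN2 fell less (-0.41 ± 0.028, adjusted p = 3.96e-26). RD29A averaged 129.8 ± 2.42 CPM in atchz1ab and 139.6 ± 2.77 CPM in hta9hta11, both near the combined line. In the interaction 13 of the 29 members lay above the sum of the component lines' changes and 0 below (3.41% and 3.74% of all genes), with 0.67 ± 0.054, adjusted p = 9.35e-21 for RD29A. The phosphatase gene ABI1, a brake on the pathway that abscisic acid induces, fell slightly (-0.21 ± 0.048, adjusted p = 0.000668).

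Most tested nitrate genes rose. Of 8 tested members 6 rose and 0 fell (median 0.12), against 6.19% of all genes that rose. In the highest bin by level, where abundant genes such as NIA2 lie, 21.7% of genes were called in either direction. NIA1 (AT1G77760), a nitrate reductase, was at 438, 459.9 and 446 CPM in Col-0 and 633, 634 and 645 CPM in the combined line (0.51 ± 0.024, adjusted p = 3.41e-40). NIA2 (AT1G37130), the other nitrate reductase, was at 1047, 1033 and 1045 and 1238, 1244 and 1255 CPM (0.26 ± 0.018, adjusted p = 3.21e-25), and ASN1 (AT3G47340), an asparagine synthetase induced in the dark, at 30.1, 31.7 and 33.2 and 50.4, 51.4 and 55.4 CPM (0.72 ± 0.078, adjusted p = 1.08e-13). The groups did not overlap. NIA1 averaged 478 ± 9.74 CPM in atchz1ab and 613 ± 9.11 CPM in hta9hta11.

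The other lists moved in both directions or little. Of 34 tested photosynthesis genes 15 rose and 11 fell (median 0.014), against 6.19% and 5.32% of all genes, with 21.7% called in either direction in the highest bin by level. Antenna genes were among those that fell, such as LHCB2.2 (-0.32 ± 0.027, adjusted p = 1.7e-19) and LHCB3 (-0.27 ± 0.017, adjusted p = 1.03e-27), and genes of carbon fixation among those that rose, such as CA1 (0.14 ± 0.013, adjusted p = 4.69e-17) and GAPB (0.14 ± 0.015, adjusted p = 1.32e-13). Against the same shares over all genes, 37 of 92 tested genes of the chloroplast genome fell and 2 rose (median -0.23), and 5 of 28 of the mitochondrial genome fell and 0 rose (median -0.27). These shares moved with the lower organelle share given above, which was also low in atchz1ab (1.60% ± 0.0073) and not in hta9hta11 (2.1% ± 0.021), and its part in the result was not tested. Of 12 tested senescence genes 3 rose and 3 fell, against 6.19% and 5.32% of all genes. DIN10 (AT5G20250), a gene induced by darkness and low sugar, was at 254, 254 and 257 and 455, 440.4 and 463 CPM (0.83 ± 0.027, adjusted p = 9.72e-56), and SEN1 rose (0.79 ± 0.056, adjusted p = 7.2e-25), while SAG13 fell (-1.19 ± 0.16, adjusted p = 1.54e-09).

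The counts that follow stand against 6.19% of all genes that rose and 5.32% that fell. Of 24 tested clock genes 4 rose and 1 fell (median 0.048), with GI rising (0.25 ± 0.037, adjusted p = 3.45e-08) and ELF4 falling (-0.22 ± 0.042, adjusted p = 2.05e-05). The heat shock gene HSP17.6II passed the filter on low counts only through Col-0, so that it had to be lower. Of the 14 heat shock genes whose passing did not rest on Col-0 or the combined line alone, 2 rose and 1 fell. Over all 17 tested heat shock genes 2 rose and 2 fell (median 0.066), and among 13 of flavonoids and anthocyanins 3 rose and 3 fell (median 0.037). Of these 10 genes, HSP90.1 (0.36 ± 0.084, adjusted p = 0.00085), HSP17.6A (-1.6 ± 0.35, adjusted p = 0.000281), CHI (0.48 ± 0.12, adjusted p = 0.00197) and TT19 (-1.25 ± 0.33, adjusted p = 0.0042) held in every fit that leaves out a library. Of 19 auxin and shade genes 1 rose, HFR1 (0.76 ± 0.19, adjusted p = 0.00173), and 1 fell. Of 6 tested root markers ADF8 rose (2.85 ± 0.37, adjusted p = 1.86e-10). The other 9 H2A genes and the 13 other histone chaperones had 0 calls against Col-0 in edgeR and in DESeq2, with 1 and 3 members at an unadjusted p under 0.05 in edgeR. Of 14 genes of the H2A.Z machinery, HTA9, HTA11 and SEF (-0.86 ± 0.23, adjusted p = 0.00548), a subunit of SWR1, fell and 0 rose.

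Set against its component lines, the combined line was nearer to hta9hta11. Against hta9hta11 330 genes differed (1.75%), 150 higher and 180 lower. Against atchz1ab 2007 differed (10.6%), 1032 higher and 975 lower. The comparisons with Col-0 and with the component lines share the libraries of the combined line and are given side by side only. The interaction was called for 1352 genes (7.15%), 645 above the sum of the component lines' changes and 707 below.

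Called interactions were ranked by absolute size among genes that were also called against Col-0. Those genes had groups apart there and a mean of at least 1 CPM in the higher group. The 6 largest of these interactions lay above that sum. AT1G53540, a small heat shock protein, was at 2.72, 3.25 and 3.12 CPM in Col-0 and 0.454, 0.771 and 0.899 CPM in the combined line, with means of 0.147 ± 0.0619 CPM in atchz1ab and 0.147 ± 0.1597 CPM in hta9hta11 (6.36 ± 0.95, adjusted p = 5.84e-08 for the interaction). CYP94B3 (AT3G48520), which breaks down active jasmonate, was at 4.33, 3.88 and 3.75 and 1.54, 1.87 and 2.14 CPM, with 0.661 ± 0.283 and 0.6602 ± 0.18 CPM in the component lines (4.0 ± 0.58, adjusted p = 2.13e-08). TPS04 (AT1G61120), which makes a volatile terpene of wounded leaves, was at 3.84, 3.88 and 3.75 and 0.544, 1.54 and 1.91 CPM, with 0.775 ± 0.398 and 0.483 ± 0.0558 CPM in the component lines (3.67 ± 0.65, adjusted p = 7.63e-06). In each of these the combined line stayed below Col-0 in all libraries and above both component lines on average. The component lines held few counts for AT1G53540, CYP94B3 and TPS04. The sum of their falls then lies near or below what these depths can count, so that the sizes of these interactions are uncertain. HSP17.6II (5.02 ± 0.83, adjusted p = 1.11e-06), PAP14 and AIG1 (3.96 ± 0.62, adjusted p = 2.95e-07) made up the rest. Against Col-0, CYP94B3 did not pass without replicate 1 of the combined line (adjusted p = 0.0698), nor AIG1 without replicate 3 of Col-0 (adjusted p = 0.223) or of the combined line (adjusted p = 0.131). HSP17.6II, which passed the filter on low counts only through Col-0, did not pass in DESeq2 (adjusted p = 0.0878) or in 4 of the 6 fits that leave out a library.

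Beyond the lists, a few genes of little known role stood among the largest changes. AT1G20750, annotated as a RAD3-like helicase, had 0 counts in Col-0 and was at 0.998, 1.87 and 1.24 CPM in the combined line, at least 11.5-fold higher (adjusted p = 2.29e-06), with 1.44 ± 0.419 CPM in atchz1ab and 0 in hta9hta11. AT5G07610, an F-box gene, had 2 counts in Col-0 and 69 in the combined line, a ratio of 30.5 (95% counting interval 8.12 to 257), with means of 3.06 ± 0.8298 CPM in atchz1ab and 0.0355 ± 0.0615 CPM in hta9hta11. AT5G60250, a RING finger gene, was at 0.619, 0.735 and 0.5 and 9.07, 10.7 and 7.98 CPM (3.86 ± 0.28, adjusted p = 1.52e-24), with 8.63 ± 0.973 CPM in atchz1ab and 1.303 ± 0.432 CPM in hta9hta11, and it overlaps another gene over 629 bases. All 3 had higher means in atchz1ab and in the combined line than in Col-0 and in hta9hta11. AT5G42280, of the C1 domain family, went the other way, with 68 counts in Col-0 and 0 in the combined line, at least 25.7-fold lower (adjusted p = 1.29e-12). It was also at 0 in hta9hta11 and at 2.51 ± 0.474 CPM in atchz1ab. LURP1 (AT2G14560), induced by pathogens, fell from 8.91, 11.3 and 9 CPM to 1.54, 1.76 and 1.69 CPM (-2.56 ± 0.23, adjusted p = 2.01e-18).

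Among the called genes with the most counts, the 18S ribosomal RNA gene AT3G41768 was at 18088, 17669.7 and 17683 CPM in Col-0 and 13692, 13879 and 13808 CPM in the combined line (-0.37 ± 0.011, adjusted p = 1.4e-60). Counts of this RNA, which lacks a poly(A) tail, fell from 1.82% ± 0.018 to 1.41% ± 0.0089 of each library (SD, n = 3), and in atchz1ab too it lay between 1.36% and 1.39%. RBCS1A, a small subunit of Rubisco with close copies, fell slightly (-0.062 ± 0.011, adjusted p = 4.51e-06), LHCB1.3 fell (-0.19 ± 0.011, adjusted p = 9.48e-31) and RBCS3B rose (0.18 ± 0.014, adjusted p = 2.72e-23). THI1 (AT5G54770), which makes the thiazole of vitamin B1, was at 4432, 4344 and 4372 and 4951, 4933 and 4868 CPM (0.17 ± 0.013, adjusted p = 5.65e-23). By kind of gene, 1150 of 18264 protein-coding genes rose and 935 fell, and of 22 tested miRNA precursor genes 3 fell and 0 rose. Over all genes 6.19% rose and 5.32% fell, and 3 falls among 22 genes carry little weight.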

How the data were processed

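Seedling RNA of 18 libraries was sequenced with a stranded mRNA kit, per the labels. The authors deposited 1 table of raw counts, whole numbers with no scaling applied. The submitters' processing notes name cutadapt, HISAT2, SAMtools, featureCounts and the build TAIR10. Their versions and settings, and whether counting used the strand, were not given in the sources used here. Column names gave each library's genotype, and 0 columns were left unused.

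Counts were tested with edgeR 4.0.16 in R 4.3.3 by the quasi-likelihood test, with TMM scaling, the default filter on low counts and genotype as the single factor over all 18 libraries (12 residual degrees of freedom). The filter kept 18906 genes, holding 99.905% of counts. A gene was called at an adjusted p under 0.05, by the Benjamini-Hochberg method across the genes tested. Standard errors come from the test statistic. The fit was tested on simulated data, with known changes, before use. The common coefficient of variation between replicates was 3.08%, and replicate pairs of the 2 groups differed by more than sampling noise (chi-square per degree of freedom 1.45 to 1.55). Intervals and floors (95%, 3 counts) cover counting error only.

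Symbols, coordinates and promoter windows of 250 bases come from RefSeq and the TAIR10.1 sequence, matched to 32835 identifiers. Of 486 listed genes, 476 whose names RefSeq carries were kept, in 23 lists. The lists, the rule for named genes and the members were chosen with earlier results of these data known. Rises, falls and interactions were ranked only among genes called against Col-0, with groups apart and at least 1 CPM in the higher group. The rule took the H2A.Z genes and ARP6, the 12 largest rises and falls, up to 5 called members per direction of each list with its first 2 members, the 6 largest interactions and the 5 most abundant called genes. Its protein sequences are not printed, and 1 listed gene is not reported here. The seed promoters and the remaining list members named in the text were chosen after their values were seen. Alternatives were other scaling (DESeq2's size factors), other filters, DESeq2 1.42.0, the compared groups alone, a replicate block and leaving out each library, with an assumed coefficient of variation of 0.1 added after the data were seen.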

Additional observations from a re-analysis of the deposited data

Results flagged for a closer look

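The change that hta9hta11 brings differed between plants with and without atchz1ab in 56 of the genes named above, by the test of the interaction in edgeR (adjusted p under 0.05). The named genes tested numbered 163, and 7.15% of all genes tested were called for the interaction. Most named genes were picked because they were called, and 6 for their large interactions, so that the count of 56 is partly set by that choice. Positive values mean that the combined line lay above the sum of the log2 changes of atchz1ab and hta9hta11. Where a component line had few counts, that sum can lie below what the counts can show, and the size of a large positive value is then uncertain.

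Of 13 tested seed maturation members 2 were called below the sum, with interactions of -1.19 for CRU3 and -0.48 for CRA1. Of 32 tested DNA damage members 3 were, with -0.80 for GMI1, -0.74 for BRCA1 and -0.25 for TSO2. The flowering genes FUL (-0.97) and TEM1 (-0.42) lay below the sum too. Among iron genes the values were -1.34 for BHLH38, -1.47 for BHLH39, -0.89 for BHLH100, -0.29 for BTS, -0.31 for FRO3, -0.19 for OPT3 and 0.87 for FER1.

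Phosphate genes had 1.75 for PS2, 2.90 for PEPC1, 0.60 for AT4, 1.54 for PHT1;4, 1.32 for PHO1;H1 and 4.82 for PAP14, with -0.20 for PHO2 and -0.29 for PAP12. Defence genes had 3.67 for PR1, 0.90 for ACD6, 2.96 for PR2, 0.98 for DMR6, 1.63 for PAD3, 0.32 for LOX2, 1.27 for PDF1.2A, 2.45 for LURP1 and -0.41 for ESM1. Genes of abscisic acid and cold had 0.35 for RAB18, 0.67 for RD29A, 0.41 for P5CS1, 1.44 for KIN1 and 0.37 for KIN2.

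In nitrogen and carbon metabolism the interactions were 0.17 for NIA2, -1.0 for ASN1, -0.45 for DIN10, -0.93 for SEN1, 0.54 for LHCB2.2, 0.28 for LHCB3, 0.35 for LHCB1.3, -0.49 for CA1, -0.25 for GAPB, -0.10 for RBCS1A, -0.27 for RBCS3B and -0.25 for THI1. SAG13 had 2.56 and GI -0.22. Heat and wound genes had 2.94 for HSP17.6A, 5.02 for HSP17.6II, 6.36 for AT1G53540, 4.0 for CYP94B3 and 3.67 for TPS04. AIG1, of the list of salicylic acid and immunity, had 3.96.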

How the results depend on the processing

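Against Col-0, counts of called genes stayed within 1.5 times of 2177 under all alternatives but the assumed coefficient of variation below, with 1563 in DESeq2 and 1700 to 1805 when a library was left out. Counts of at least 2-fold changes were 317 to 348 without a library, and those of the interaction 1159 to 1224. Against hta9hta11 the 330 genes became 197 in DESeq2 and 219 to 249 without a library. Against atchz1ab the 2007 became 1319 in DESeq2 and 1527 to 1584 without a library. An assumed coefficient of variation of 0.1, added after the data were seen, left 766 genes against Col-0, 119 against hta9hta11, 573 against atchz1ab and 276 for the interaction, and none of 34 photosynthesis genes, whose changes are small. With it the 6 nitrate genes that rose became 2 and the 14 glucosinolate genes that fell became 6. The 2 iron and 2 phosphate genes that rose and the 2 flowering time genes that fell became 0. The 9 phosphate genes that fell stayed 9, and the 10 DNA damage genes that rose became 9. The causes of these differences were not tested, beyond the loss of a library where 1 was left out. A replicate block gave 2161 against Col-0 and changed no call of a named gene. Replicate numbers did not pair the libraries, with correlations of same-numbered deviations of -0.0083, 0.0053 and 0.029. Of the named genes tested, 163 in all, 16 changed their call without a library and 53 under any alternative, and 0 reversed. With the stricter filter on low counts 7 seed maturation genes were called in place of 11, since fewer were tested. Depth limits what can be said of genes with few counts, such as the embryo regulators.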
